A study of Mus musculus with 6 samples.

Results

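IGFBP3 and NDRG1 were examined together with the hypoxia-inducible genes SLC2A3, SLC2A1, VEGFA, CA9, ADM, BNIP3, ANKRD37 and P4HA1 in KYSE30 cells exposed to acetylcholine (ACh). Of these 10 genes 6 had a row in the deposited table of 4195 genes, namely IGFBP3, NDRG1, SLC2A3, SLC2A1, P4HA1 and BNIP3. The table holds only genes with an unadjusted p under 0.05 in the authors' own comparison. VEGFA, CA9, ADM and ANKRD37 therefore have no value here, and nothing is said of their direction. The set was put together with the differences between ACh and Control already known, IGFBP3 and NDRG1 for their large rises. The values of the 6 genes are given as a description, without p-values.

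KYSE30 is an established human line grown from a squamous carcinoma of the esophagus, wild type by its label, so the values describe a single line. RNA was sequenced from 3 libraries of cells stimulated with 100 uM ACh for 4 h and from 3 libraries of Control cells at 4 h. The labels state neither a vehicle for the Control cells nor a low-oxygen exposure for either group, and they do not say that replicates were separate cultures. Any p-value below therefore measures only the spread between these libraries, which may be technical.

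The values are normalised read counts. Summed over the listed genes, a library held between 10519515 and 11468978 normalised counts, which is not the sequencing depth, and the depth is unknown. If the smallest step between values is 1 read, the ACh libraries had been divided by factors of 0.884 to 0.954 and the Control libraries by 0.986 to 1.30. The submitters' labels name mouse as the organism, whereas 4183 of the 4195 gene IDs are human. Of 14 squamous epithelial markers 7 were listed (SFN, ITGA6, SOX2, TP63, ITGB4, KRT15 and DSG3), and they summed to 63880 to 65667 normalised counts in ACh libraries and 66440 to 69157 in Control libraries. Fibroblast, endothelial and leukocyte markers had 1 listed gene each, COL1A1 (133 to 147 in ACh, 146 to 193 in Control), EGFL7 (818 to 970 in ACh, 1052 to 1081 in Control) and LAPTM5 (31.1 to 48.2 in ACh, 17.7 to 21.3 in Control). Their part in the results was not tested, and the other markers of these lists have no value here.

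Cells sense oxygen through prolyl hydroxylases of the EGLN family, which use oxygen to mark the alpha subunits of hypoxia-inducible factor (HIF) for destruction by a ubiquitin ligase that contains VHL. When oxygen falls, the alpha subunit is stabilised, pairs with ARNT and raises genes for glucose uptake, glycolysis, acid export, collagen modification, mitophagy and growth of blood vessels. Several of these genes also respond to other stimuli, such as growth factor, nutrient and stress signals, so none of them reports on oxygen alone.

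Of the 6 listed genes, IGFBP3, NDRG1, SLC2A3, P4HA1 and BNIP3 were higher in ACh, by 1.23-fold to 2.12-fold, and SLC2A1 was lower. In each of the 6 genes the 3 ACh libraries and the 3 Control libraries did not overlap. Such separation was found in 93.0% of all listed genes, 44.6% in the higher and 48.3% in the lower direction, since the table had been selected for a difference. All 6 also had an adjusted p under 0.05 in limma and in the authors' deposited table, as did 63.8% of the listed genes, and nothing is read from that count because the genes were chosen on this contrast. In RNA of a whole culture, fewer cells that express a gene and less RNA per cell cannot be told apart.

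**Figure D1:**
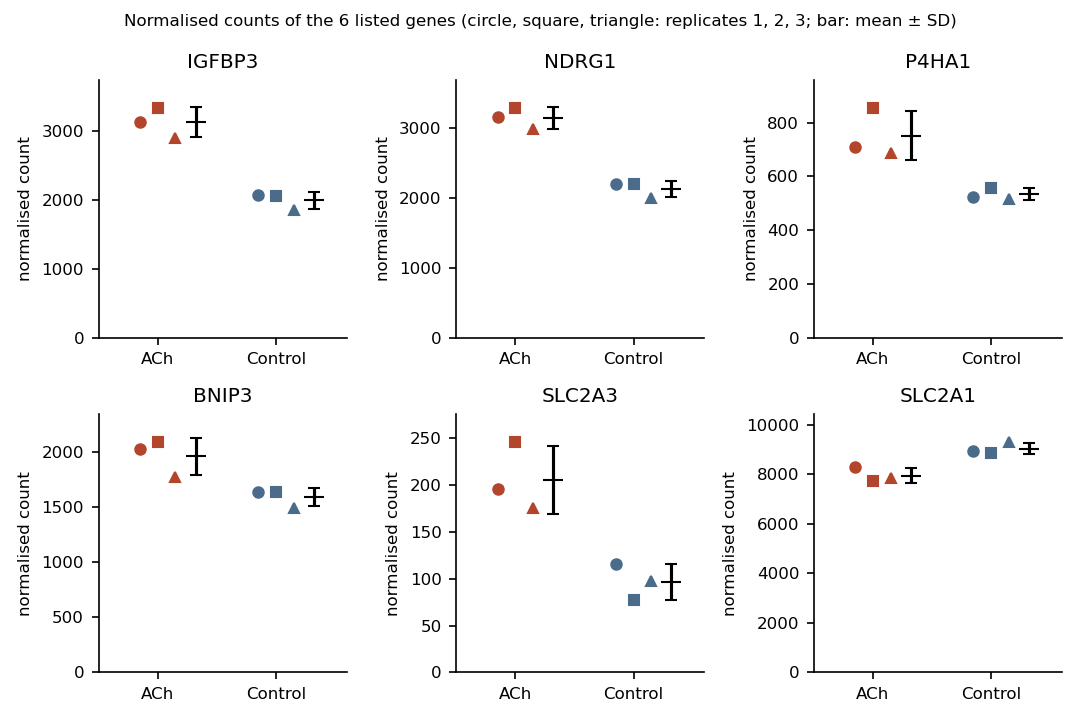
Normalised counts (vertical axes, from 0) of the 6 listed genes in each library, with ACh left of Control; circles, squares and triangles are replicates 1, 2 and 3, and the bars give the mean ± SD of the 3 libraries. Every ACh library lay above every Control library for IGFBP3, NDRG1, P4HA1, BNIP3 and SLC2A3, and below every Control library for SLC2A1.

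IGFBP3 encodes a secreted protein that binds insulin-like growth factors in the extracellular space and also has actions of its own on cells. The gene (ENSG00000146674) lies on the minus strand of chromosome 7 from 45912245 to 45921874, in the coordinates of the file, whose build is not given in the sources used here. Its normalised counts were 3128, 3331 and 2898 in ACh libraries and 2068, 2053 and 1850 in Control libraries. The lowest ACh library stood well above the highest Control library. The means were 3119 ± 217 in ACh and 1990 ± 122 in Control (SD, n = 3 each), which is a log2 difference of 0.65 ± 0.05. (standard error) Leaving out each library in turn kept it between 0.60 and 0.70.

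NDRG1 encodes a cytoplasmic protein that is induced by hypoxia, iron depletion and other stresses and is widely used as a hypoxia marker. It lies on the minus strand of chromosome 8 from 133237171 to 133302022 (ENSG00000104419). Its normalised counts were 3146, 3284 and 2982 in ACh libraries and 2200, 2190 and 1992 in Control libraries. As for IGFBP3, ACh replicate 2 was the highest library and Control replicate 3 the lowest. The means were 3137 ± 152 in ACh and 2127 ± 117 in Control (SD, n = 3 each), which is a log2 difference of 0.56 ± 0.04 (standard error), and leaving out single libraries gave 0.51 to 0.60.

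P4HA1 encodes a catalytic subunit of collagen prolyl hydroxylase, an enzyme that stabilises the collagen triple helix in the endoplasmic reticulum. It lies on chromosome 10 from 73007217 to 73096974 (ENSG00000122884). Its normalised counts were 710, 855 and 686 in ACh libraries and 524, 558 and 517 in Control libraries. The ACh libraries were spread more widely than the Control libraries, with replicate 2 above the other two. The means were 751 ± 91.5 in ACh and 533 ± 22.0 in Control (SD, n = 3 each), which is a log2 difference of 0.49 ± 0.07 (standard error), between 0.39 and 0.55 without single libraries.

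BNIP3 encodes a protein of the outer mitochondrial membrane that takes part in mitophagy, the removal of mitochondria. It lies on the same chromosome from 131966455 to 131982013 (ENSG00000176171). Its normalised counts were 2019, 2085 and 1766 in ACh libraries and 1635, 1634 and 1490 in Control libraries. ACh replicate 3 came closest to the Control libraries. The means were 1957 ± 168 in ACh and 1586 ± 83.0 in Control (SD, n = 3 each), which is a log2 difference of 0.30 ± 0.05 (standard error), between 0.25 and 0.37 without single libraries.

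SLC2A3 and SLC2A1 encode facilitative glucose transporters of the plasma membrane. The product of SLC2A1 carries basal glucose uptake in most cells, and the product of SLC2A3 is a high-affinity transporter best known from neurons. SLC2A3 (ENSG00000059804, chromosome 12, 7919230 to 7936275) had normalised counts of 195, 246 and 175 in ACh libraries and 115, 77.1 and 97.5 in Control libraries. It had the largest fold change of the 6 genes and the lowest counts. The means were 205 ± 36.3 in ACh and 96.7 ± 19.2 in Control (SD, n = 3 each), which is a log2 difference of 1.08 ± 0.15 (standard error), between 0.93 and 1.22 without single libraries. SLC2A14, a neighbouring gene of closely similar sequence, has no row in the table, and reads shared between both genes could have been assigned to either, so the value of SLC2A3 is uncertain.

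SLC2A1 (ENSG00000117394, chromosome 1, 42925375 to 42959176) had normalised counts of 8284, 7713 and 7849 in ACh libraries and 8934, 8881 and 9301 in Control libraries. All ACh libraries were lower, and the gap between the groups on the log2 scale was smaller than for the other 5 genes. The means were 7949 ± 298 in ACh and 9039 ± 229 in Control (SD, n = 3 each), which is a log2 difference of -0.19 ± 0.03 (standard error), between -0.22 and -0.16 without single libraries.

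Levels were compared between genes per kilobase, using the gene lengths of the file. The order below depends on those lengths: before this scaling NDRG1 had higher means than IGFBP3 and BNIP3 in both groups. SLC2A1 was the most abundant of the 6, with 1683 ± 63.1 normalised counts per kb in ACh and 1913 ± 48.4 in Control (SD, n = 3 each). IGFBP3 followed with 682 ± 47.4 per kb in ACh and 435 ± 26.7 in Control. BNIP3 had 367 ± 31.6 per kb in ACh and 298 ± 15.6 in Control. These were followed by NDRG1 (319 ± 15.4 per kb in ACh, 217 ± 11.9 in Control) and P4HA1 (243 ± 29.6 in ACh, 172 ± 7.12 in Control). SLC2A3 was lowest, with 33.3 ± 5.89 per kb in ACh and 15.7 ± 3.12 in Control. The order was the same in both groups, and BNIP3 and NDRG1 in ACh were the only neighbours whose libraries overlapped.

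The balance between the glucose transporter transcripts can be read within each library, where the scaling factor cancels. SLC2A3 amounted to 1.81%, 2.44% and 1.71% of SLC2A1 per kb in the ACh libraries and to 0.991%, 0.666% and 0.804% in the Control libraries. The share was thus higher in every ACh library, with means of 1.99 ± 0.397% in ACh and 0.821 ± 0.163% in Control (SD, n = 3 each). The sum of both transcripts, mostly SLC2A1, was 1716 ± 60.7 normalised counts per kb in ACh and 1929 ± 49.0 in Control. Of 12 further SLC2A genes, SLC2A8 and SLC2A6 were listed and both fell, by 0.19 and 0.28 on the log2 scale (limma adjusted p = 0.00034 and 0.0020). Of all listed genes 35.0% fell. Without the trend with base composition described below, SLC2A8 and SLC2A6 stood at 0.079 and -0.045, and neither kept its call. SLC2A8 and SLC2A6 encode transporters found mainly in intracellular membranes.

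IGFBP3 was higher in ACh, while its relatives IGFBP2 and IGFBP5 fell. IGFBP2, IGFBP5, IGFBP6 and IGFBP7 also encode secreted proteins of the insulin-like growth factor system. IGFBP2 had normalised counts of 1092, 1126 and 1168 in ACh libraries and 1345, 1442 and 1387 in Control libraries, and fell by 0.30 on the log2 scale (limma adjusted p = 2.9e-05). IGFBP5 had 208, 200 and 195 in ACh libraries and 301, 268 and 320 in Control libraries, and fell by 0.55 (limma adjusted p = 8.9e-05). IGFBP7 and IGFBP6, with log2 fold changes of -0.22 and -0.20, did not pass the authors' adjusted p. Per kb, IGFBP3 made up 43.3%, 47.0% and 41.3% of the 5 listed binding protein transcripts in ACh libraries and 30.3%, 30.8% and 27.7% in Control libraries. The other 4 together had 873 ± 43.6 normalised counts per kb in ACh and 1036 ± 23.9 in Control (SD, n = 3 each). These levels still hold the trend with base composition described below. Without it IGFBP2, IGFBP6 and IGFBP7 had log2 fold changes of -0.020, 0.059 and 0.010, while IGFBP5 stood at -0.56 and IGFBP3 at 0.75.

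**Figure D2:**
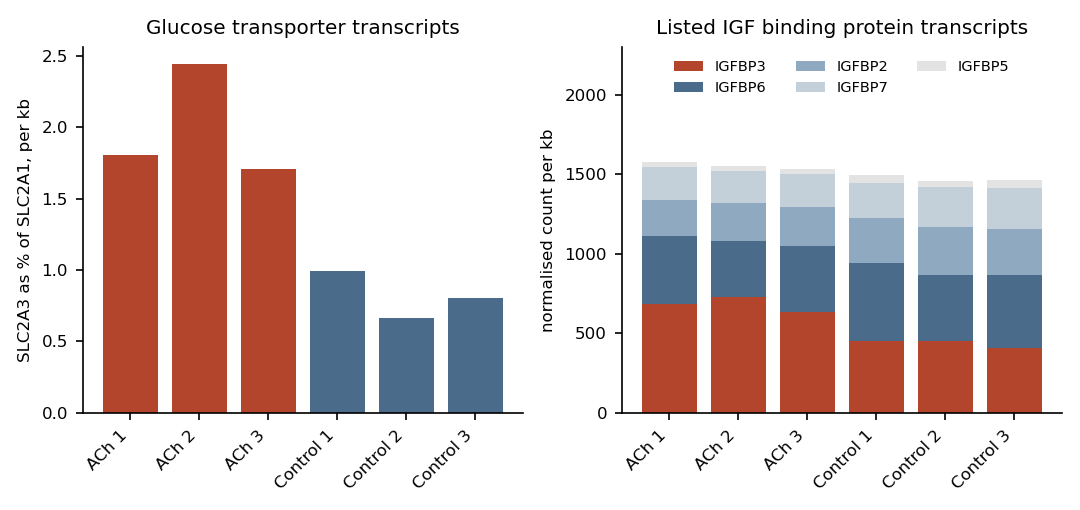
Left, the SLC2A3 level as a percentage of the SLC2A1 level, both per kb of gene length, in each library (bars, ACh left of Control); right, normalised counts per kb of the 5 listed IGF binding protein genes stacked by library. SLC2A3 stood at 1.71% to 2.44% of SLC2A1 in ACh and 0.666% to 0.991% in Control, and the IGFBP3 part of the stack was larger in every ACh library.

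Of a list of 30 genes of the insulin-like growth factor axis other than IGFBP3, 5 were listed, of which PIK3CA rose, IGFBP2 and IGFBP5 fell and 2 did not pass both tests, against 28.8% of all listed genes that rose and 35.0% that fell. PIK3CA, a catalytic subunit of phosphoinositide kinase downstream of the receptor, rose by 0.23 on the log2 scale (limma adjusted p = 0.00058). The ligands IGF1 and IGF2 and the receptors IGF1R, IGF2R and INSR have no value here. The median log2 fold change of the 5 was -0.22, beside -0.10 for all listed genes. Changes in the table followed GC content, the share of G and C bases in a gene. Once that trend was taken out of each library, the median of the 5 was 0.010, beside 0.0088 for all genes with a GC value. Then 3 of the 5 lay above 0, beside 1998 of the 3676 genes with a GC value.

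The 5 genes that were higher in ACh also shared the order of libraries within ACh, but not within Control. ACh replicate 2 held the highest ACh value for all 5, and for SLC2A1 the lowest. ACh replicate 3 held the lowest ACh value for the same 5 genes. For IGFBP3 these libraries deviated from the ACh mean by 0.10 and -0.10 on the log2 scale, whereas the median of all listed genes deviated by 0.0062 and -0.0041. In Control, replicate 3 was lowest for IGFBP3, NDRG1, P4HA1 and BNIP3, and SLC2A3 was lowest in Control replicate 2. Over all listed genes, ACh replicate 2 was the highest ACh library for 36.9%, ACh replicate 3 the lowest ACh library for 39.5% and Control replicate 3 the lowest Control library for 36.8%. With 3 libraries a group no correlation was computed, and the cause of the shared order in ACh was not tested.

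The profiles nearest to these genes were sought among 3959 listed genes with a mean of at least 50, by the root mean square difference over the 6 libraries on the log2 scale after subtraction of the Control mean. Nearest to IGFBP3 was NDRG1, with a difference of 0.0641, followed by KDM7A, ZNF572, HDAC9 and PTGS2 between 0.0782 and 0.114. Nearest to NDRG1 was HDAC9 with 0.0600, followed by IGFBP3, CCDC126, FOS and KDM7A between 0.0641 and 0.0779. IGFBP3 and NDRG1 each stood among the nearest profiles of the other. The measure includes the difference between ACh and Control, and both genes were chosen for large rises on it. Nothing is therefore read from their closeness. KDM7A, ZNF572 and CCDC126 had means of only 67.8, 50.4 and 61.3 normalised counts. No listed gene lay as close to SLC2A3, for which TUBBP1, RPL21P75, PTGS2, ARRDC3 and IGFBP3 had differences of 0.323 to 0.366. TUBBP1 and RPL21P75 are pseudogenes, whose reads can belong to closely similar genes.

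Among genes of oxygen sensing and HIF regulation, a list of 31 symbols that includes older names, 11 were listed. Of these 3 rose, 4 fell and 4 failed at least 1 of the tests. These counts are near the share over all listed genes, of which 28.8% rose and 35.0% fell. The median log2 fold change was -0.10, the same as over all listed genes. EGLN3, a prolyl hydroxylase that is itself induced by HIF, had normalised counts of 389, 398 and 344 in ACh libraries and 277, 244 and 266 in Control libraries. Every ACh library exceeded every Control library, and EGLN3 rose by 0.52 ± 0.09 on the log2 scale (standard error, limma adjusted p = 7.3e-05). EGLN1, the main prolyl hydroxylase in most cells, had a log2 fold change of 0.15, and the authors' deposited table gives it an adjusted p of 0.061. EGLN2 had 51.5, 48.7 and 53.5 normalised counts in ACh libraries and 76.0, 79.1 and 81.4 in Control libraries. Its log2 fold change was -0.61 (limma adjusted p = 0.0021). The authors' deposited table gives it an adjusted p of 1, as for 234 genes in all. That value may stand for a missing adjustment, and these genes were counted here as not called.

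HIF1A, which encodes the widely expressed HIF alpha subunit, had normalised counts of 3607, 3520 and 3516 in ACh libraries and 3356, 3271 and 3302 in Control libraries. The groups did not overlap, but the log2 fold change was 0.10. The authors' deposited table gives an adjusted p of 0.051, so HIF1A did not pass both tests. EPAS1, ARNT and VHL have no value here. CUL2, a scaffold of the VHL ubiquitin ligase, rose by 0.23 (limma adjusted p = 0.0014), and ELOB, another subunit of that ligase, fell by 0.14 (limma adjusted p = 0.00087). CITED4 and CITED2, proteins that compete with HIF for the coactivators CREBBP and EP300, fell by 0.25 and 0.20 (limma adjusted p = 6.6e-05 and 0.00013), and RACK1, which binds HIF1A, fell by 0.19 (limma adjusted p = 0.00039). HSP90AA1, a chaperone that stabilises HIF1A, rose by 0.10 (limma adjusted p = 0.021), a call that ended without ACh replicate 1 (0.099), ACh replicate 2 (0.070), Control replicate 1 (0.10) or Control replicate 3 (0.092).

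Of a list of 81 symbols of HIF target genes outside the 10 genes and, HK1 apart, the core glycolytic steps, 24 were listed. Of these 13 rose and 4 fell, and 7 were not past both thresholds, beside 28.8% of all listed genes that rose and 35.0% that fell. Their median log2 fold change was 0.19, beside -0.10 over all listed genes. Without the GC trend the medians were 0.058 for the 23 members with a GC value and 0.0088 for all genes with one. Of the 23 members 17 then lay above 0, beside 1998 of all 3676 genes with a GC value. The list was drawn up with earlier results of these data known. It shares EGLN1, EGLN3 and CITED2 with the regulators and HK1 with the glycolytic enzymes. PDK1, a kinase that restrains the entry of pyruvate into mitochondria, had normalised counts of 346, 350 and 319 in ACh libraries and 219, 256 and 233 in Control libraries. Its groups stood apart, and it rose by 0.52 ± 0.09 on the log2 scale (standard error, limma adjusted p = 9.5e-05). PPP1R3C, a subunit that targets a phosphatase to glycogen, rose by 0.33, and RBPJ, the transcription factor of the Notch pathway, rose by 0.32. ERO1A, an oxidase of disulfide formation in the endoplasmic reticulum, rose by 0.25, and BNIP3L, a mitophagy receptor related to BNIP3, rose by 0.24. Beside CITED2, the genes that fell included SLC16A3, which encodes an exporter of lactate, and ALKBH5, an RNA demethylase, by 0.17 and 0.10 on the log2 scale. The adjusted p-values of limma for PPP1R3C, RBPJ, ERO1A, BNIP3L, SLC16A3 and ALKBH5 lay between 1.8e-05 and 0.0051.

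Glycolytic enzymes, also HIF targets, were mostly lower, with 2 of 10 listed members that rose (HK2 by 0.23 and PGK1 by 0.14 on the log2 scale) and 7 that fell, ALDOA by 0.85, GAPDH by 0.25 and ENO1 by 0.18 among them, beside 28.8% of all listed genes that rose and 35.0% that fell. Their median log2 fold change was -0.15, and 0.045 without the GC trend. There 7 of the 10 lay above 0, beside 1998 of the 3676 listed genes with a GC value. ALDOA had few counts for a glycolytic gene, 97.3 ± 11.2 in ACh and 177 ± 27.5 in Control (SD, n = 3 each). Among genes of glucose sensing 6 of 14 were listed, and 3 rose, 1 fell and TXN and MLXIP were not called, close to the 63.8% of all listed genes called in either direction. TXNIP, an arrestin-like protein that restrains glucose uptake, rose by 0.43 (limma adjusted p = 1.2e-06), and its relative ARRDC3 by 0.70 (limma adjusted p = 1.1e-05). PRKAA1, a catalytic subunit of the AMP-activated kinase, rose by 0.23, and STK11, a kinase that activates it, fell by 0.32. NDRG2, NDRG3 and NDRG4 have no value here.

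Direction in the whole table moved with base composition. Over the 3676 listed genes with a mouse gene of the same symbol, log2 fold change and mouse GC content had a Spearman correlation of -0.76 across genes. Genes are not independent replicates, and the human GC content was not measured. Genes without a difference are missing from the table, so the trend over all expressed genes is unknown. IGFBP3 and NDRG1, with a mouse GC content of 52.5% and 52.3%, went against this trend. Of the 247 other listed genes within 1 percentage point of IGFBP3, 18.6% were above 0 and their median log2 fold change was -0.15. For NDRG1, 20.6% of 247 such genes were above 0.

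SLC2A3 (49.4%) lay where 65.2% of 230 genes of like GC content were above 0, with a median of 0.14. P4HA1 (45.7%) and BNIP3 (41.6%) lay where 93.8% and 97.1% of such genes were above 0, with medians of 0.18 and 0.21. SLC2A1 (54.0%) lay where 6.12% were above 0, and its log2 fold change of -0.19 stood beside a median of -0.17. SLC2A1 and that median differed by less than its standard error of 0.03. BNIP3 exceeded their median by less than the other 4 genes did.

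**Figure D3:**
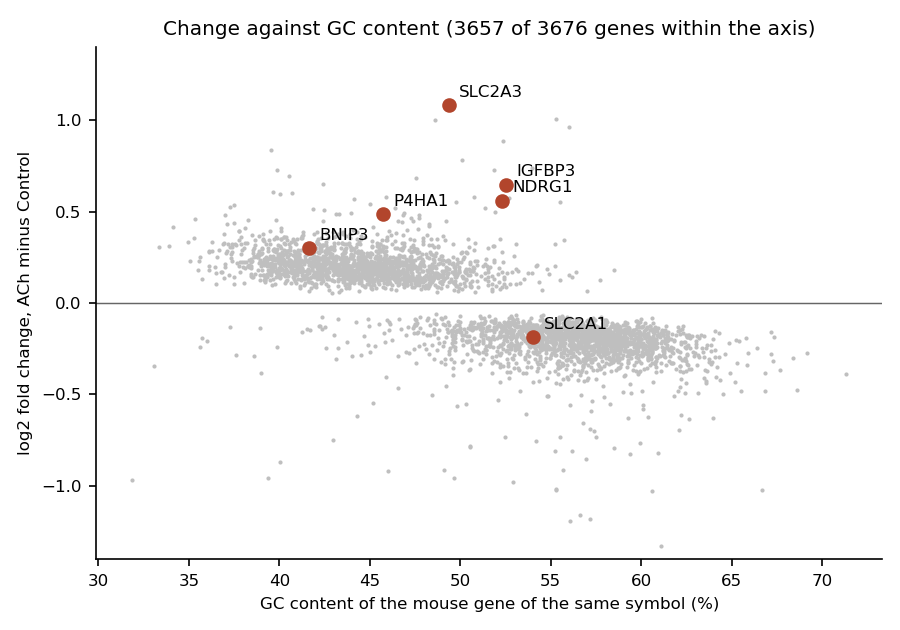
Log2 fold change, ACh minus Control (vertical axis), against GC content (horizontal axis, percent, taken from the mouse gene with that symbol) for 3657 of 3676 listed genes (grey points); the 6 genes are marked and named. The gap around 0 comes from the selection of the table, and IGFBP3, NDRG1 and SLC2A3 lie above the cloud, while BNIP3 and SLC2A1 lie within it.

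After the GC trend was taken out library by library, 10.7% of these 3676 genes were called and 8.95% kept both call and sign. Those that kept both were 329 of the 2460 genes with a GC value that had been called before. That share, and not 8.95%, is the one to set beside genes already called. The call still asked for the authors' adjusted p, which came from values with the trend in them. A gene that differed only without the trend could therefore not be called. IGFBP3, NDRG1, SLC2A3 and P4HA1 then had log2 fold changes of 0.75, 0.66, 1.03 and 0.31, with standard errors of 0.05, 0.04, 0.14 and 0.07. BNIP3 stood at 0.09 and SLC2A1 at -0.03, and neither kept its call. Of the 16 called HIF targets with a GC value 3 kept their call and sign, namely EGLN3 (0.57), PDK1 (0.35) and ALKBH5 (-0.12). EGLN1 stood at 0.34 and HK2 at 0.30, while HIF1A changed sign to -0.11. EGLN1 and HIF1A then had limma adjusted p of 1.2e-05 and 0.013, but failed the authors' adjusted p and were not called. RACK1 (-0.17), ALDOA (-0.65), IGFBP5 (-0.56), PGK1 (0.11), TXNIP (0.34) and ARRDC3 (0.48) kept their calls. CUL2 (0.014), PPP1R3C (0.16), RBPJ (0.13), BNIP3L (0.028), IGFBP2 (-0.020), CITED2 (-0.031), PIK3CA (0.011), PRKAA1 (0.0095), STK11 (-0.078), SLC2A6 (-0.045) and GAPDH (-0.048) lost theirs. CITED4, ELOB, HSP90AA1, SLC16A3, SLC2A8 and ENO1 changed sign, and ERO1A had no GC value.

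**Figure D4:**
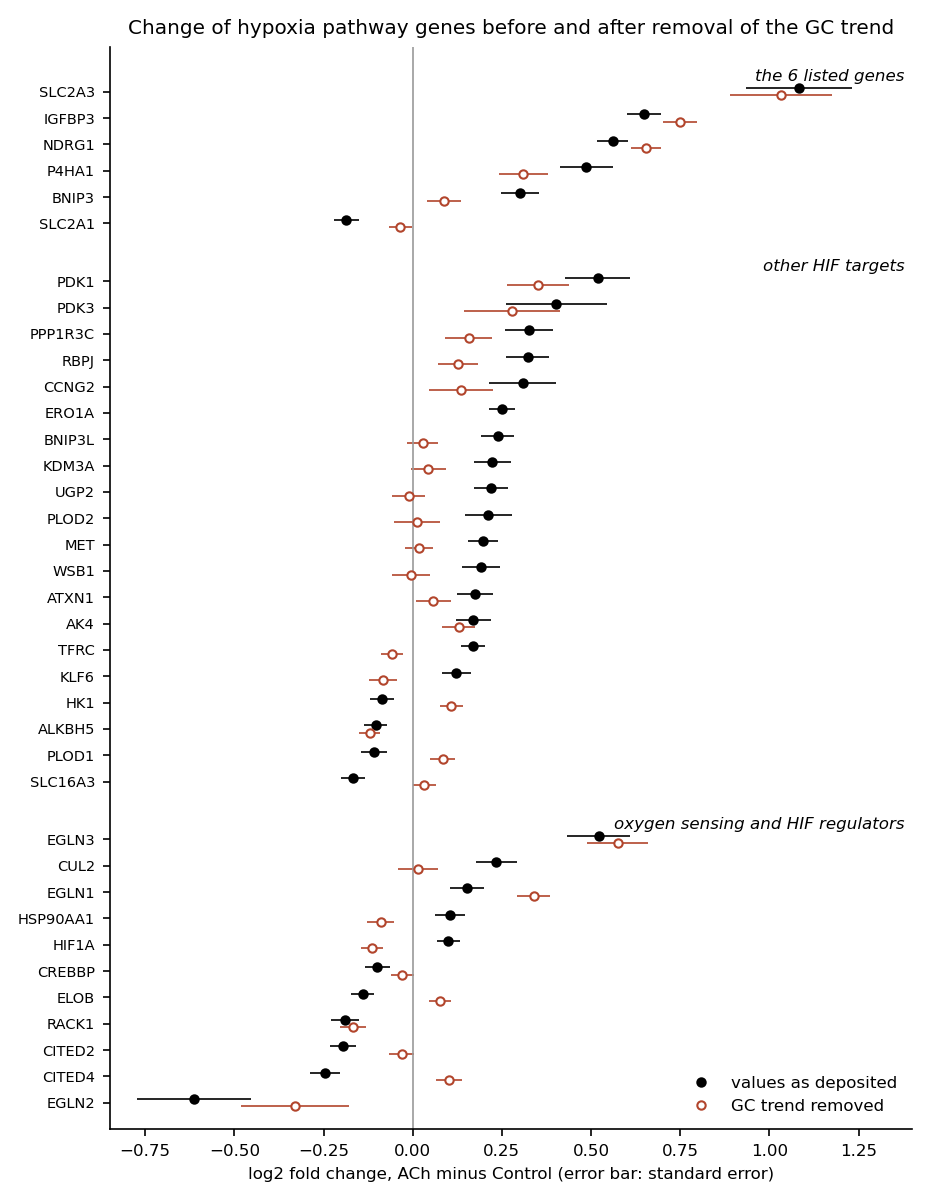
Log2 fold change, ACh minus Control (horizontal axis; error bars are standard errors of limma), of the 6 listed genes, of other HIF targets and of the oxygen sensing genes, from the deposited values (filled) and with the GC trend removed (open). IGFBP3, NDRG1, SLC2A3, P4HA1, EGLN3 and EGLN1 stayed above 0. BNIP3 moved towards 0, and most other HIF targets moved towards 0 or across it. Of the oxygen sensing genes, HIF1A, CITED4, ELOB and HSP90AA1 crossed 0.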

How the data were processed

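The members and all gene lists were chosen with earlier results of these data known. The unit of the deposited library values is a signal: read counts that the authors had scaled by 1 factor per library. This was inferred from the values, of which 100% were whole multiples of a step per library within 0.1 of a step. Each Control library had fewer than 100 values at or under 20 steps, so reads were not rebuilt and no count test was run. The log2 fold change, p-value and adjusted p-value columns come from the authors, per the file headers. Bowtie 0.12.2 and the builds mm8 and mm10 appear, with no role, in the submitters' processing notes. Neither the human build nor the counter is given in the sources used here, and counting is not stated to use strand. No other listed gene overlapped the 6 genes.

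Values were fitted as log2(value + 1) with limma 3.58.1 (limma-trend, R 4.3.3), group as the only term, with Benjamini-Hochberg adjustment over the 4195 listed genes. A gene rose or fell where both limma and the authors' adjusted p were under 0.05. As the table was selected for a difference, limma alone called 4178 genes and is no independent support. Fold changes on this scale understate changes of low genes. The test was checked on simulated data in which most genes did not change and no GC trend was present. That check does not bear on the calls in this selected table. Named genes were the listed genes of the rule, up to 6 called genes per direction of each list with the largest change and a mean of at least 50, families of HIF, EGLN, IGFBP, SLC2A and NDRG, and the 5 nearest profiles of 3 genes. CREBBP was named beside its competitors. A gene that this rule names is not reported here, though the list counts include it. GC content was taken from mouse genes with the same symbol, using the longest coding transcript in GENCODE (87.6% of listed genes), and its trend was removed per library by local regression with a span of 0.3. Alternatives were other pseudocounts, a filter on low values, a replicate block, equal totals, other call rules and leaving out single libraries.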

Additional observations from a re-analysis of the deposited data

How the results depend on the processing

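With the GC trend removed, 394 of 3676 genes were called, against 2677 of 4195 before, and 522 with the replicate block added. These calls still asked for the authors' adjusted p, which came from values with the trend in them. The HIF target list then held 3 called genes (4 with the block), the oxygen sensing list 2 (5 with the block) and the insulin-like growth factor list 1 (1 with the block), against 17, 7 and 3. By limma alone 4178 listed genes, 11 oxygen sensing genes and 5 genes of the growth factor axis were called. Removal of the GC trend, with or without the block, turned the log2 fold changes of CITED4 (0.10), ELOB (0.077), ENO1 (0.034), PFKL (0.084), PKM (0.056), SLC16A3 (0.032), SLC2A8 (0.079), IGFBP6 (0.059) and IGFBP7 (0.010) above 0, and those of HIF1A (-0.11) and HSP90AA1 (-0.090) below it. The removal rests on mouse GC content and on the listed genes alone, which were selected for a difference. The trend over all expressed genes may differ and could not be measured, so the removal may take out too much or too little. Equal totals raised the log2 fold changes by a median of 0.080 and ended the calls of ALKBH5, ELOB and PFKL among the genes named. The 6 genes kept their directions in every alternative run. SLC2A3 was taken out by the lower-quartile filter, and BNIP3 and SLC2A1 lost their calls with the GC trend removed. HSP90AA1 was the only named gene that lost its call without a single library. Those runs kept the authors' adjusted p from all 6 libraries, so the calls that stayed say little about single libraries.

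Deviations of same-numbered libraries correlated at 0.082, 0.056 and 0.047 over all listed genes, under the 0.1 asked for a pairing, and at 0.17, 0.15 and 0.35 over genes at or above the median level. Each library correlated best with its own number, which is a hint from the data and not from the design. The replicate block called 2677 genes and changed no call of a named gene. Each of these calls also asked for the authors' adjusted p, which was not refitted and alone called 2678 genes. As limma alone called 4178 genes, the calls were largely fixed by the authors' value, and little is read from their stability. The count tests planned for whole reads were not run. The depth of the libraries is unknown, which limits what can be said of SLC2A3 and EGLN2.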
